A study of Mus musculus with 13 samples.

Results

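Expression of 9 genes of adult hippocampal neurogenesis was examined in whole hippocampi of Kmt2d+/βGeo mice, a model of Kabuki syndrome. The genes are Sox2, Hopx, Nes, Eomes, Neurog2, Igfbpl1, Neurod1, Sox11 and Dcx. They were chosen as known markers of dentate stem cells, progenitors and immature neurons, with earlier results of these data known. Every probe set that the array annotation gives to exactly 1 of them was read. This gave 1 probe set for each gene, or 9 of the 35556 probe sets in the table and 9 of the 19938 genes that could be tested. Kmt2d encodes a histone H3 lysine methyltransferase, and the βGeo allele carries a reporter fused to a selection marker, here on 1 copy of the gene. All 13 mice were on a C57BL/6J background, ate standard chow and were 1 to 2 months old. Experiment 1 held 4 wild-type and 3 heterozygous mice without injections, and experiment 2 held 3 wild-type and 3 heterozygous mice that had received saline by injection 3 times a day. The labels call all mice female but for 1 whose sex they leave as unknown, wild-type replicate 3 of experiment 1. The allele is carried in every tissue, so the genotype is not limited to the dentate gyrus, and the labels give no litters. Values are log2 intensities from Affymetrix Mouse Gene 1.0 ST arrays, 1 mouse per array.

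New granule neurons are made throughout life in the subgranular zone of the dentate gyrus. Radial glia-like stem cells divide to give intermediate progenitors, which become neuroblasts, then immature neurons that extend processes and join the granule cell layer. SOX2 and nestin mark the stem cells, EOMES (TBR2) the intermediate progenitors, and doublecortin the neuroblasts and immature neurons, and these cells are a small share of the whole hippocampus.

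RefSeq promoters (assembly GRCm38.p6, 250 bases before to 50 bases after the annotated start) were found for 8 of the 9 genes. The 3 below belong to Eomes, Neurog2 and Neurod1, transcription factors at work while progenitors commit to the neuronal fate. These promoters are shown because each holds the TATA-type motif TATATAA just before its start. Capitals mark TATATAA and CCAAT, searched on both strands. The Eomes promoter lies at chr9:118477939-118478238 on the + strand, that of Neurog2 at chr3:127632886-127633185 on the + strand, and that of Neurod1 at chr2:79456587-79456886 on the - strand.
Eomes: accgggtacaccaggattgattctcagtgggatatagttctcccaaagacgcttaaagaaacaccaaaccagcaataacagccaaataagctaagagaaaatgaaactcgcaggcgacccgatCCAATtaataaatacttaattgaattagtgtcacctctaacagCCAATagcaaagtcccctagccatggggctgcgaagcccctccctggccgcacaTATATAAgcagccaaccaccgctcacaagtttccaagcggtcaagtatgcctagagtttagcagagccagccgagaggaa
Neurog2: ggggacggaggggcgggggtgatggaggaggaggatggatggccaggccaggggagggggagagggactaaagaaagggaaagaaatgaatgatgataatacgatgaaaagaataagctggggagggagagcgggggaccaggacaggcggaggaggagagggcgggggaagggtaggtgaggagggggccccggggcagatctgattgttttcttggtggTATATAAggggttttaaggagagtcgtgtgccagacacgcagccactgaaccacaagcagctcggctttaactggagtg
Neurod1: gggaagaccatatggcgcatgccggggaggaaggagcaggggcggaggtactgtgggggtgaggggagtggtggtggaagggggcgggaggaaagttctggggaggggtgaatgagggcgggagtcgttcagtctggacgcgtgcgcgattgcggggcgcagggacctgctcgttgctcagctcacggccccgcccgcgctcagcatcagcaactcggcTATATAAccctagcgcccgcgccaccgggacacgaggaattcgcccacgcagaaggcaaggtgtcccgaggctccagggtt
The motif TATATAA begins at position -30 in Eomes, -29 in Neurog2 and -31 in Neurod1, counted from the annotated start. It was searched for after these sequences had been seen, and 3.24% of 32851 promoters of 300 bases hold it. CCAAT occurs in the Eomes promoter at -127 and -84 and is held by 37.4% of the promoters. The E-box CANNTG, the general motif bound by basic helix-loop-helix factors such as NEUROG2 and NEUROD1, has 1 match in the Neurod1 promoter and none in the Eomes or Neurog2 windows, against 72.3% of promoters that hold at least 1. The array data give no binding at these sites, so the matches are a description of the sequences only.

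A Kmt2d probe set read lower with the βGeo allele in each experiment, 7.33 ± 0.15 (SD, n = 3) against 7.88 ± 0.01 (n = 4) in experiment 1 and 8.02 ± 0.15 against 8.53 ± 0.22 (n = 3 each) in experiment 2. A second Kmt2d probe set read 9.91 ± 0.06 against 9.82 ± 0.01 and 9.69 ± 0.17 against 9.63 ± 0.18. Most wild-type values of experiment 1 were tied between arrays in both probe sets, so the SD of 0.01 there rests largely on ties. The median over all probe sets lay between 6.74 and 6.90 on the arrays of experiment 1, and between 7.04 and 7.08 on those of experiment 2. Hippocampal markers were bright on all 13 arrays, Prox1 of dentate granule cells between 8.21 and 10.28 and Neurod6 of pyramidal neurons between 10.45 and 11.22. Arrays stood apart by markers of neighbouring tissue. The mean of 10 striatal genes on wild-type replicate 2 of experiment 1 was 2.29 above the mean of its experiment, while the other 12 arrays lay between -0.52 and 0.13. That array, wild-type replicate 3 of experiment 1 and heterozygous replicate 3 of experiment 2 had stood apart in earlier work on these data, and results are also given without these 3. Some arrays that were kept lay as far out by the mean of 14 choroid plexus genes. Relative to the mean of its experiment, it was -0.92 on wild-type replicate 3 of experiment 2 and 0.80 on wild-type replicate 4 of experiment 1.

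None of the 9 genes differed between the genotypes at an adjusted p under 0.05 when both experiments were fitted together (limma, experiment as a term, Benjamini-Hochberg over all genes). Of all 19938 genes 0% were called either. At an unadjusted p under 0.05 there were 2 members, Eomes and Nes, both lower in heterozygous mice, where 5.25% of all genes passed. Differences lay below 0 for 6 of 9 members, against 49% of all genes, and their median was -0.04, against 0.00 for all genes. Within experiment 1 no member was called (0.0201% of all genes, all of them lower), 1 passed an unadjusted p under 0.05 (3.5% of all genes) and 5 lay below 0 (42.4%). Within experiment 2 no member was called (0% of all genes), 0 passed an unadjusted p under 0.05 (10.2%) and 7 lay below 0 (52.9%). In a whole tissue, fewer cells of a type and less RNA per cell cannot be told apart.

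**Figure D1:**
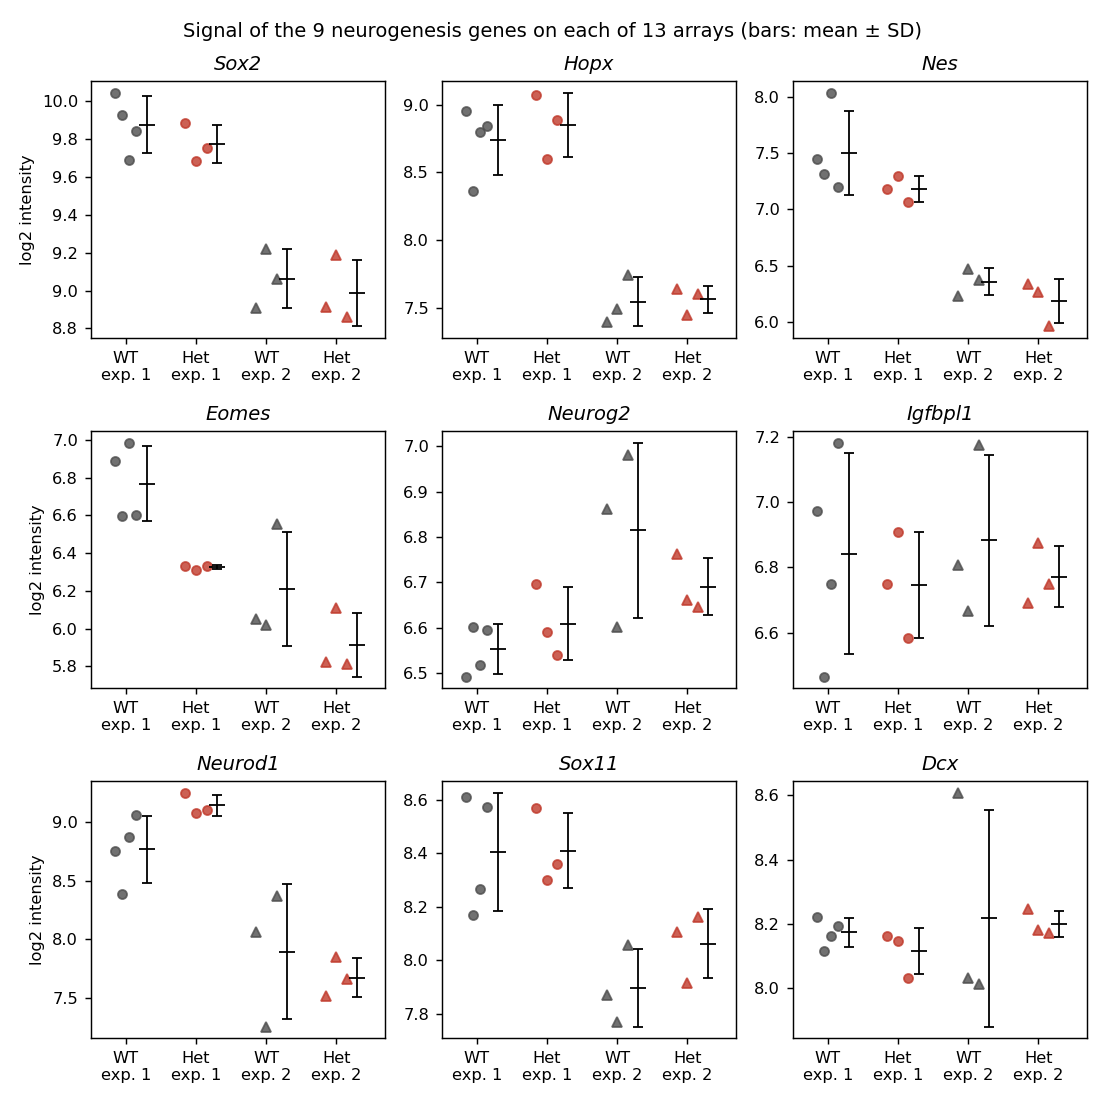
Deposited log2 intensity of the 9 genes on each of the 13 arrays, by genotype and experiment; points are single mice, and bars are group means ± SD. In experiment 1 the 3 heterozygous Eomes values sit at 6.31 to 6.33, below all 4 wild-type values, and the Hopx, Nes and Neurod1 points of experiment 2 lie below those of experiment 1.

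Eomes, a T-box transcription factor that is the defining marker of intermediate progenitors, had the largest genotype difference of the 9 genes. It was also the dimmest of the 9, with a mean of 6.34 over all arrays. Only 30.8% of genes were dimmer, so its fold and percent values describe a weak signal. The wild-type mice of experiment 1 read 6.89, 6.60, 6.98 and 6.60, and the heterozygous mice 6.33, 6.31 and 6.33. Heterozygous replicates 1 and 3 of experiment 1 held the identical deposited value, 6.3329. Every heterozygous value of that experiment lay below every wild-type value, and the difference was -0.44 ± 0.13 (SE, 95% confidence interval -0.73 to -0.16), or 1.36-fold. In experiment 2 the wild-type mice read 6.05, 6.02 and 6.56 and the heterozygous mice 5.82, 6.11 and 5.81. There the groups overlapped, because heterozygous replicate 2 lay above 2 of the wild-type mice, and the difference was -0.29 ± 0.14 (interval -0.60 to 0.01).

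Over both experiments the Eomes difference was -0.37 ± 0.10 (SE, interval -0.58 to -0.17), so that the heterozygous level was 77.2% of the wild-type level, and Eomes ranked 48 among all genes by p. The adjusted p was 0.553 in limma over both experiments, 0.69 within experiment 1 and 0.498 within experiment 2. Exact permutation of genotype within experiment gave a two-sided unadjusted p of 0.01 over both, where the smallest possible is 0.00143. Within experiment 1 the exact permutation p was 0.0286, the smallest that 4 against 3 mice allow, and within experiment 2 it was 0.3, where 3 against 3 cannot go below 0.1. The Eomes values of heterozygous mice lay under the mean of their experiment in 5 of 6 cases. Nes had the same count, and Sox2, Igfbpl1 and Dcx had 4 of 6. Leaving out wild-type replicate 3 of experiment 2, the highest of its group, moved the Eomes difference within experiment 2 to -0.12, and leaving out the array with high striatal genes moved the difference within experiment 1 to -0.50. Without the 3 arrays that stood apart, the Eomes difference was -0.33 over both experiments, -0.42 within experiment 1 and -0.24 within experiment 2. Wild-type replicate 3 of experiment 2 was kept there. With arrays weighted by their quality, limma called Eomes within experiment 1 at an adjusted p of 0.0469. The weights raised the calls among all genes in that comparison from 4 to 163, so the rise in calls was not particular to Eomes. Array weighting was the only setting of those tried that called any of the 9 genes for genotype.

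The stem cell genes showed smaller or less regular differences. Sox2, a transcription factor that maintains neural stem cells and is also active in astrocytes, averaged 9.88 ± 0.15 (SD, n = 4) in wild-type and 9.77 ± 0.10 (n = 3) in heterozygous mice of experiment 1. In experiment 2 it averaged 9.06 ± 0.16 and 8.99 ± 0.18 (n = 3 each), and the difference over both was -0.09 ± 0.08 (SE). Hopx, which encodes a homeodomain-only cofactor found in quiescent stem cells and astrocytes, averaged 8.74 ± 0.26 and 8.85 ± 0.24 in experiment 1 and 7.55 ± 0.18 and 7.56 ± 0.10 in experiment 2. Its difference over both was 0.07 ± 0.10, with an interval from -0.14 to 0.28 that spans 0. For both genes the groups overlapped in each experiment.

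Nes encodes nestin, an intermediate filament of neural stem cells that endothelial cells also make. The wild-type mice of experiment 1 read 7.45, 7.32, 8.04 and 7.20, and the heterozygous mice 7.18, 7.30 and 7.06. Replicate 3, the mouse of unknown labelled sex, was the highest of the 4, and the groups overlapped through wild-type replicate 4. In experiment 2 the values were 6.23, 6.47 and 6.37 in wild-type and 6.34, 6.26 and 5.96 in heterozygous mice. The Nes difference over both experiments was -0.25 ± 0.11 (SE, interval -0.49 to -0.01), with an adjusted p of 0.934 in limma and an exact permutation p of 0.0657. Without wild-type replicate 3 of experiment 1 the Nes difference was -0.16 over both and -0.14 within experiment 1, against -0.32 with it, and without the 3 arrays that stood apart it was -0.10 over both. Among 14 endothelial and pericyte genes, 7 lay below 0 and 7 above, and none passed an unadjusted p under 0.05. Their differences ran from -0.21 to 0.18 with a median of 0.02. The lowest p belonged to Cdh5 at -0.21 and Pdgfrb at -0.10, so these 2 do not stand for the direction of the list.

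The genes of neuronal commitment did not move as 1 group. Neurog2, a proneural basic helix-loop-helix factor of progenitors, averaged 6.55 ± 0.06 and 6.61 ± 0.08 in wild-type and heterozygous mice of experiment 1, and 6.81 ± 0.19 and 6.69 ± 0.06 in experiment 2. Its difference over both was -0.03 ± 0.07 (SE). Igfbpl1, which encodes a protein related to insulin-like growth factor binding proteins and marks neuroblasts, averaged 6.84 ± 0.31 and 6.75 ± 0.16, then 6.88 ± 0.26 and 6.77 ± 0.09, with a difference of -0.10 ± 0.11. The groups of both genes overlapped in both experiments.

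Neurod1, the factor that drives granule neuron maturation and stays active in granule cells, had opposite signs in the experiments. Wild-type mice of experiment 1 read 8.75, 8.39, 8.87 and 9.06, and the heterozygous mice 9.25, 9.08 and 9.10, each above all wild-type values. The difference within experiment 1 was 0.38 ± 0.20 (SE, interval -0.06 to 0.81). It was 0.25 without wild-type replicate 2 of that experiment, the array with high striatal genes. In experiment 2 the wild-type mice read 8.06, 7.25 and 8.37 and the heterozygous mice 7.51, 7.84 and 7.66, all 3 within the wild-type range, with a difference of -0.22 ± 0.22. The limma test of the difference between these effects gave -0.60 ± 0.30, with an adjusted p of 0.769. The Neurod1 value within experiment 2 was 0.02 without wild-type replicate 3 and -0.54 without wild-type replicate 2.

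In experiment 1 the genotypes were fully apart for 2 members, Eomes lower and Neurod1 higher. The share of all genes with such separation was 7.22%, 2.75% lower and 4.47% higher. In experiment 2 there were 0 of 9, against 9.48% of all genes. The group means were lower in heterozygous mice of both experiments for 5 members, Sox2, Nes, Eomes, Igfbpl1 and Dcx, against 21.8% of all genes. No member differed between the experiments in its genotype effect at an adjusted p under 0.05 in limma, and this held for 0% of all genes. None of the 9 members passed an unadjusted p under 0.05 in that test, where 6.53% of all genes did.

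Sox11 and Dcx stand for the later steps. Sox11, a SoxC factor of immature neurons, averaged 8.40 ± 0.22 and 8.41 ± 0.14 in wild-type and heterozygous mice of experiment 1 and 7.90 ± 0.15 and 8.06 ± 0.13 in experiment 2. Its difference over both was 0.08 ± 0.09 (SE, interval -0.11 to 0.26). Dcx, which encodes the microtubule-binding protein of migrating neuroblasts, read 8.22, 8.12, 8.16 and 8.19 in wild-type and 8.16, 8.15 and 8.03 in heterozygous mice of experiment 1. In experiment 2 it read 8.61, 8.03 and 8.01 in wild-type and 8.25, 8.18 and 8.17 in heterozygous mice. Apart from the 8.61 of wild-type replicate 1 the values of Dcx lay within 8.01 and 8.25 across genotypes and experiments. Its difference over both was -0.04 ± 0.08, with an interval from -0.21 to 0.14.

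**Figure D2:**
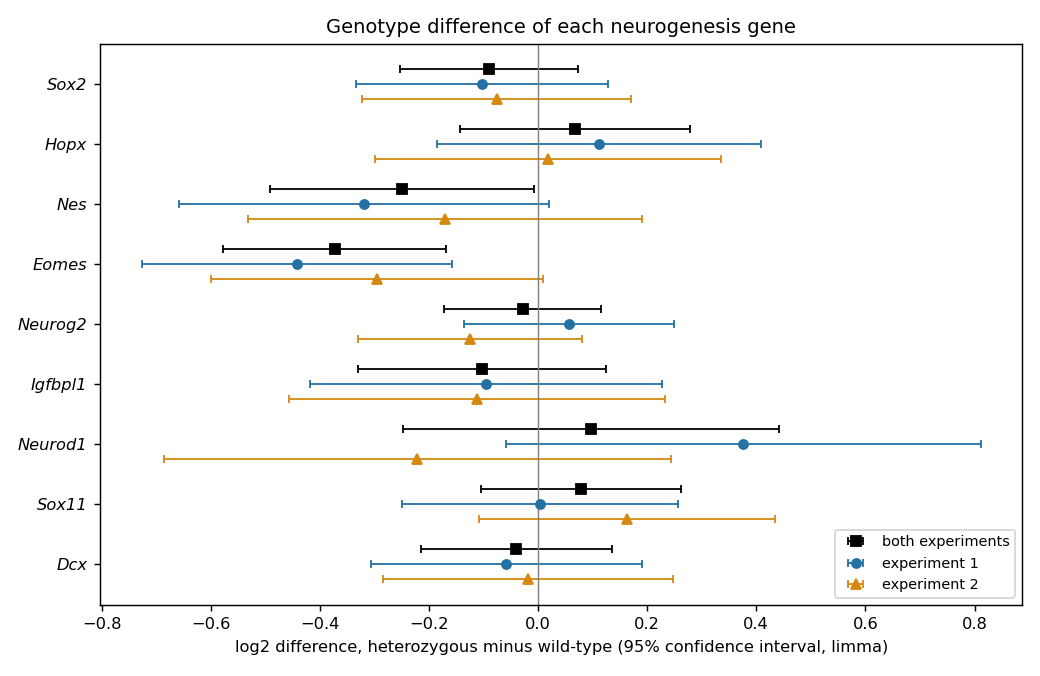
Difference in log2 intensity, heterozygous minus wild-type, for the 9 genes over both experiments and within each; points are limma estimates and bars 95% confidence intervals. The Eomes interval over both experiments runs from -0.58 to -0.17, while that of Dcx runs from -0.21 to 0.14.

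The medians of the wider lists moved little with genotype, and none of the genes in these lists reached an adjusted p under 0.05 in limma over both experiments. The lists can hold genes that mature cells also express, as with Neurod6 of pyramidal neurons in the progenitor list. The immature neuron list was bright, with array means of 9.89 to 10.18. In whole hippocampus the medians therefore cannot be read as the state of a stage alone. Among 20 genes of radial glia-like stem cells, 11 lay below 0 and the median was -0.02, and the lowest p belonged to Riiad1 (-0.25 ± 0.11, SE) and Tfap2c (-0.15 ± 0.07). Among 18 genes of intermediate progenitors and neuroblasts, 10 lay below 0 and the median was -0.03, with 0.06 in experiment 1 and -0.09 in experiment 2. Among 17 genes of immature granule neurons, 9 lay below 0 and the median was -0.05. Genes of dividing cells lay below 0 in 7 of 20 cases, with a median of 0.04. There Mcm6, a subunit of the replicative helicase, differed by 0.28 ± 0.12 and Top2a, a topoisomerase of mitotic cells, by 0.12 ± 0.06. The median of all genes was 0.00 over both experiments, 0.02 in experiment 1 and -0.01 in experiment 2.

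Single genes of these lists had the following values over both experiments, as log2 differences. In the progenitor list, Neurod6, a factor of maturing pyramidal neurons, differed by 0.20 ± 0.07 (SE), and Calb2, which encodes the calretinin of late neuroblasts, by -0.29 ± 0.15. In the immature neuron list, Sema3c, a secreted guidance protein, differed by 0.22 ± 0.09, and Marcksl1 by 0.19 ± 0.09. Among 32 genes of signals that act on neurogenesis, 20 lay below 0. Within that list Bmp6, a ligand of the bone morphogenetic protein pathway that holds stem cells in quiescence, differed by -0.46 ± 0.12, with -0.59 in experiment 1 and -0.31 in experiment 2. Gli3, a transcription factor of the Hedgehog pathway, differed by -0.23 ± 0.07, with -0.16 and -0.31. The limma adjusted p of Bmp6 over both experiments was 0.633, so neither ligand nor factor passed.

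**Figure D3:**
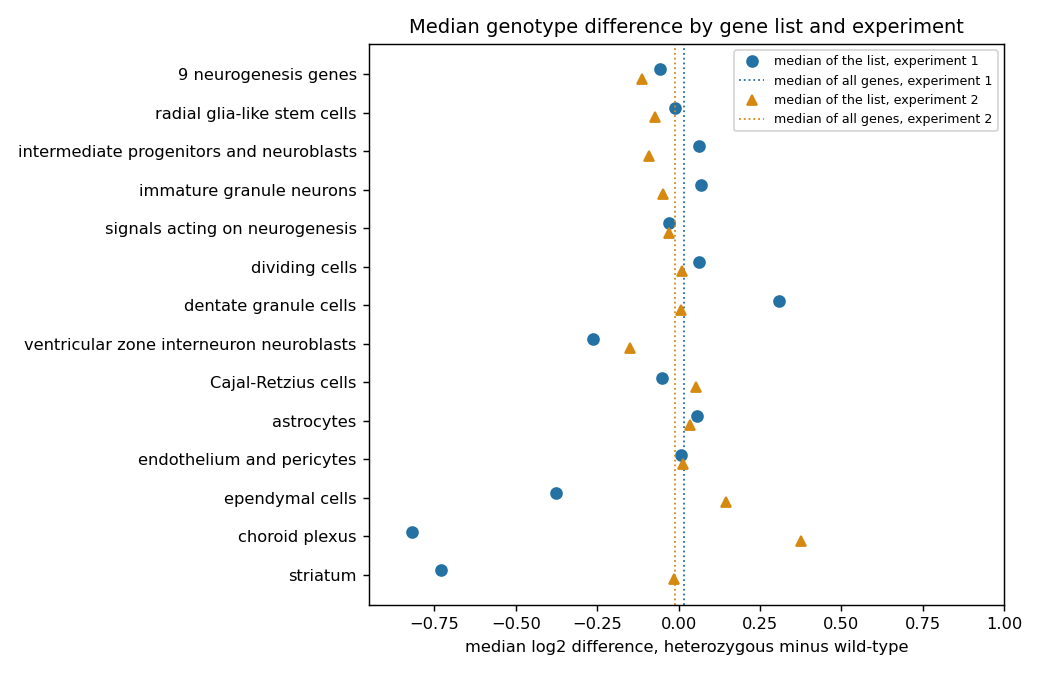
Median log2 difference, heterozygous minus wild-type, of the 9 genes and 13 marker lists in experiment 1 (circles) and experiment 2 (triangles); dotted lines are the medians of all genes. The lists of progenitors and immature neurons lie within 0.10 of 0, while choroid plexus reads -0.82 and 0.38.

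Lists of other cell types of the dissected tissue were read on the same arrays. The median of 19 dentate granule cell genes was 0.31 in experiment 1 and 0.01 in experiment 2, with 1 of 19 below 0 over both, and the value of experiment 2 was -0.14 without its wild-type replicate 2. In that list Trpc6, a cation channel, differed by 0.34 ± 0.09 (SE) over both and Dgkh, a diacylglycerol kinase, by 0.18 ± 0.07. The list's mean on the 3 heterozygous arrays of experiment 1 was 0.14 to 0.20 above the mean of that experiment, and on the wild-type arrays between -0.41 and 0.02. The -0.41 was on wild-type replicate 2, the array with high striatal genes, and the other wild-type arrays lay between -0.13 and 0.02. The 3 heterozygous arrays are those on which Neurod1, also active in granule cells, was high. Choroid plexus genes had medians of -0.82 and 0.38, with 13 of 14 below 0 over both (49% of all genes). The choroid plexus median of experiment 2 rested on single arrays, at 0.029 without its wild-type replicate 3 and 0.11 without its heterozygous replicate 3. Ependymal genes had medians of -0.38 and 0.14, with 11 of 12 below 0. The lowest p belonged to Clic6 (-0.71) and Abca4 (-0.60) among choroid plexus genes and to Cfap126 (-0.24) and Spag16 (-0.23) among ependymal genes. Striatal genes had medians of -0.73 and -0.02, with 10 of 10 below 0, and Isl1 (-0.47) and Ppp1r1b (-0.46) had the lowest p. These values rested on wild-type replicate 2 of experiment 1, without which the striatal median was -0.14 in experiment 1 and -0.062 over both, with 7 of 10 below 0. The astrocyte median was 0.05 with 4 of 14 below 0, with Agt at -0.35 and Aqp4, the water channel, at 0.14. The part of these cell types in the member values was not tested.

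Markers of EOMES-expressing cells outside the dentate progenitors were read too. Cajal-Retzius cells, early-born neurons of the hippocampal fissure, can express EOMES, and the Cajal-Retzius list of 10 genes did not hold Eomes. Of these, 5 lay below 0, 4 passed an unadjusted p under 0.05 downward and 1 upward, where 5.25% of all genes passed, and the median was -0.04. This list, like the others, was chosen with earlier results of these data known, so its counts are a description. The lowest unadjusted values of p in it belonged to Cacna2d2, a calcium channel subunit, with a difference of -0.55 ± 0.11 (SE), and to Ebf3, a factor of the EBF family, with -0.42 ± 0.10. Their limma adjusted p-values were 0.292 and 0.516. Reln, the secreted protein that defines these cells, differed by -0.14, Trp73 by 0.05, Lhx1 by -0.23 and Lhx5 by 0.08. Relative to the mean of the experiment, the list's mean on the heterozygous arrays of experiment 1 was -0.11 to -0.06, while the 4 wild-type arrays lay at 0.03 to 0.10. In experiment 2 wild-type replicate 3, the array with the highest Eomes, also had the highest list mean, at 0.18. Its part in the Eomes values was not tested.

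Markers of interneuron neuroblasts of the ventricular zone, the other adult niche, had 8 of 9 genes below 0 (49% of all genes), 4 of them at an unadjusted p under 0.05 (5.25% of all genes), and a median of -0.23. The highest list mean, 0.24 above that of its experiment, was on wild-type replicate 2 of experiment 1, the array with high striatal genes, and without it the median was -0.26 with 8 of 9 below 0. Dlx6, a homeobox factor of GABAergic neurons, differed by -0.42 ± 0.13 (SE), with -0.48 in experiment 1 and -0.35 in experiment 2, and Sp9, a zinc finger factor of the same lineage, by -0.35 ± 0.12. None of them passed an adjusted p under 0.05 in limma. Whether these values came from neuroblasts or from other GABAergic neurons of the tissue was not tested.

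The gene whose values across arrays were most like those of Eomes was Ebf3. With each experiment centred on its own mean, Pearson's r was 0.97 over 13 arrays, which share their experiment's normalization, with 0.97 in experiment 1 and 0.99 in experiment 2, and Spearman's rho was 0.95. Without the 2 arrays farthest from the median of Eomes, wild-type replicate 3 of each experiment, r was 0.94. Ebf3 read 7.32, 7.13, 7.50 and 7.17 in wild-type and 6.64, 6.70 and 6.75 in heterozygous mice of experiment 1. In experiment 2 it read 6.71, 6.68 and 7.22 in wild-type and 6.60, 6.82 and 6.53 in heterozygous mice. As with Eomes, the genotypes were apart in experiment 1 and overlapped in experiment 2, where wild-type replicate 3 was the highest. Next came Adgrd1, an adhesion G protein-coupled receptor, with r = 0.86, and Gad1, a GABA-synthesising enzyme, with r = 0.86. These genes were picked as the highest among all, so the r values are a description. Values were not centred by genotype, so a shared genotype difference enters r. Over both experiments that difference was -0.42 for Ebf3, -0.47 for Adgrd1 and -0.14 for Gad1.

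**Figure D4:**
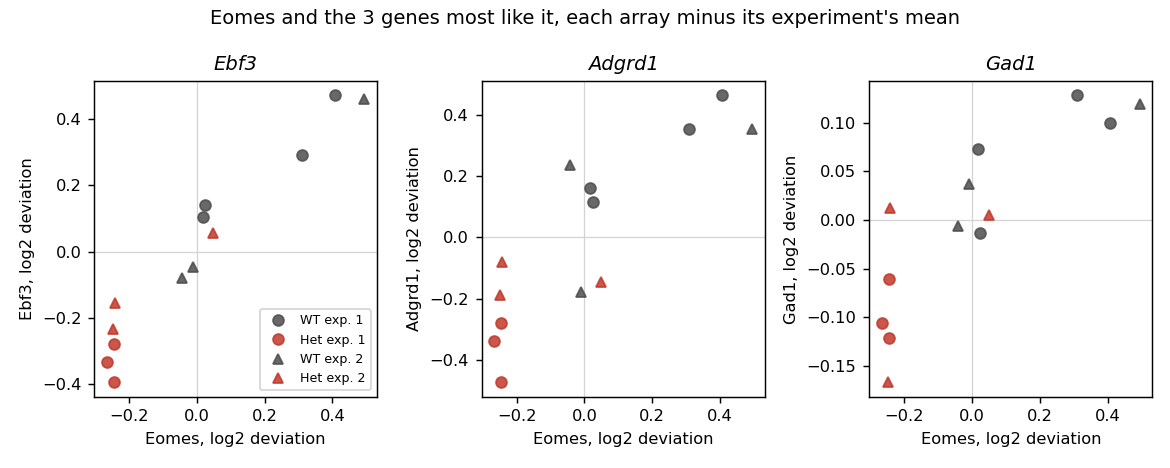
Values of Ebf3, Adgrd1 and Gad1 against those of Eomes on the 13 arrays, each as log2 deviation from the mean of its experiment. The Ebf3 points follow a line (r = 0.97), and wild-type replicate 3 of both experiments is at the upper end.

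The 9 genes themselves did not vary together. Among the 36 pairs, r over 13 arrays centred by experiment ran from -0.37 to 0.77 with a median of 0.11, and 24 lay above 0. The highest were Hopx with Sox11 (0.77), Neurog2 with Neurod1 (0.70) and Nes with Eomes (0.67), and the lowest was Nes with Sox11. Within experiments, Nes and Eomes had r = 0.82 and 0.43. Any shared genotype difference enters these pair values too.

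The largest differences of these genes were between the experiments, which were separate microarray experiments and also differed in injections, so the sources cannot be told apart. Of the 9 genes, 7 differed in experiment 2 from experiment 1 at an adjusted p under 0.05 in limma, 6 lower and 1 higher, where 77.2% of all genes were called, 35.4% lower and 41.8% higher. The stem cell genes differed by -1.24 ± 0.10 (SE, 2.36-fold) for Hopx, -1.07 ± 0.11 (2.10-fold) for Nes and -0.80 ± 0.08 for Sox2. Neurod1 differed by -1.15 ± 0.16 (2.22-fold), Eomes by -0.49 ± 0.10 and Sox11 by -0.43 ± 0.09. Adjusted p-values of these 6 genes in limma lay between 9.59e-09 for Hopx and 0.000265 for Sox11. Dcx, at 0.06 ± 0.08, and Igfbpl1, at 0.03 ± 0.11, were not called. Neurog2 was higher by 0.18 ± 0.07 (limma adjusted p = 0.0255), but with array medians set equal it read -0.07 and was not called. Nor was Neurog2 called without wild-type replicate 1 of experiment 1 (0.16), or without replicate 1 (0.16) or 3 (0.13) of the wild-type mice of experiment 2.

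The median of all genes in this comparison was 0.07 as deposited and -0.17 with array medians set equal. That scaling turned the share of calls that were lower from 45.8% to 71.7% over all genes. Relative to the median of all genes, Hopx differed by -1.31, Neurod1 by -1.22, Nes by -1.14, Sox2 by -0.87, Eomes by -0.56 and Sox11 by -0.50. With medians equal these 6 remained called, where 69.4% of all genes were called and 49.8% lower. Dcx and Igfbpl1, at 0.06 and 0.03 as deposited, read -0.18 and -0.21 with medians equal and were called in neither. As deposited, where 35.4% of all genes were called lower, astrocyte genes were called lower in 11 of 14 cases with a median of -0.61, and endothelial and pericyte genes in 10 of 14 with a median of -0.50. Sox2 and Hopx are also active in astrocytes and Nes in endothelium, and the part of those cells was not tested.

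**Figure D5:**
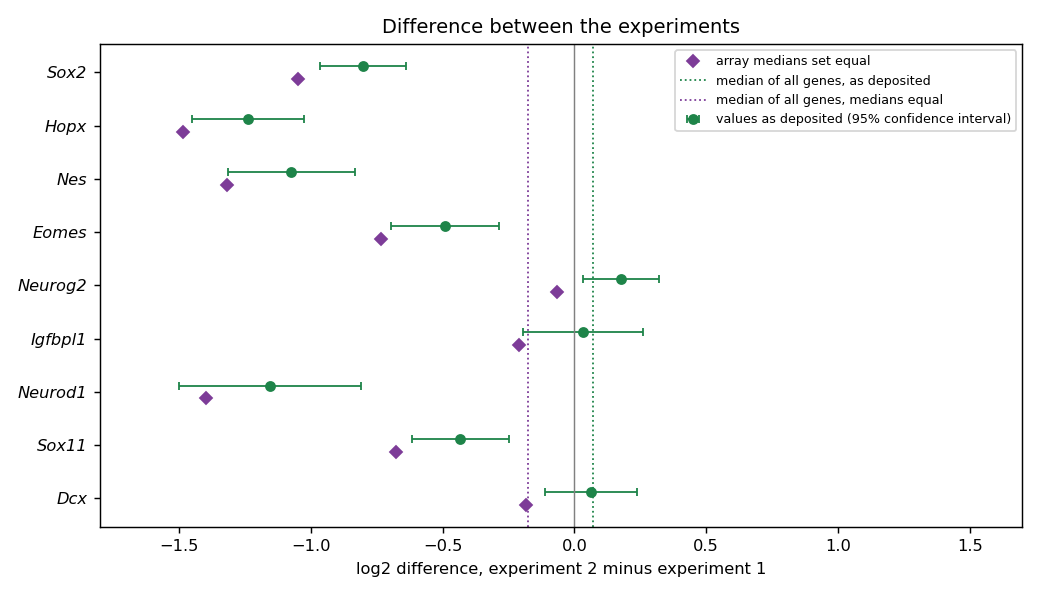
Log2 difference between experiment 2 and experiment 1 for the 9 genes, as deposited (circles, with 95% confidence intervals) and with array medians set equal (diamonds); dotted lines are the medians of all genes. Hopx reads -1.24 and -1.48, and Neurog2 changes sign between the scalings, from 0.18 to -0.07.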

How the data were processed

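Whole hippocampi of 13 mice were profiled on Affymetrix Mouse Gene 1.0 ST arrays. The deposited values are log2 intensities per probe set, which the authors made with RMA in oligo, per the submitters' processing notes. The sources used here do not say whether both experiments were normalized in 1 run, or with which version. Probe sets were named through the platform annotation where it gave 1 gene (21789 probe sets), and the brightest stood for a gene. Limma 3.58.1 in R 4.3.3 was fitted to all 19938 genes, with genotype and experiment as terms, or with the 4 groups for effects within experiments and their difference. Confidence intervals are at the 95% level and calls at an adjusted p under 0.05. Genotype was also permuted exactly within experiment. The number of arrays limits the precision, and some deposited values of Eomes, Neurog2, Igfbpl1, Dcx and Kmt2d are tied between arrays. In a test on simulated data of 19938 genes for genotype over both experiments, 55 of 100 genes shifted by 0.37 were recovered. Of those shifted by 1, 100 of 100 were recovered, with 10 false calls in that run. Both sets were planted together, which eases the adjustment for each gene, and the noise was normal and independent between genes. In the data the lowest limma adjusted p over both experiments was 0.121, so the 55 of 100 does not carry over to 1 gene of that size. The 9 genes and the 13 lists were chosen with earlier results of these data known. Named in the text are all 9 genes, the 2 genes of lowest p in each list, the 3 genes most like Eomes and the gene most like each other member; other genes named were chosen as defining markers. Alternatives were the probe sets tested, filters on dim genes, limma settings, array weights, 2 scalings, each array left out, 3 arrays left out together and a replicate block. Leaving out each array for the lists was added after seeing the data.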

Additional observations from a re-analysis of the deposited data

How the results depend on the processing

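The count of members called for genotype, 0, stayed so under the alternatives run, except that array weights called 1 within experiment 1 (Eomes). In that comparison array weights called 163 of all genes, against 4 without weights. Over both experiments the Eomes difference stayed between -0.42 and -0.31, with adjusted p from 0.0782 to 0.994 in limma. Leaving out the dimmest 50% of genes removed Nes, Eomes, Neurog2 and Igfbpl1, so that 4 called members were left between the experiments, because the removed genes were no longer tested. The labels do not say what the replicate numbers mark. Same-numbered mice of one experiment had correlations of deviations from -0.23 to 0.22, from too few mice to settle whether the numbers mark pairs. With a replicate block the Eomes difference was -0.40 over both experiments and -0.50 within experiment 1, Igfbpl1 read 0.018 within experiment 1, and no member was called. No paired analysis was possible for experiment 2 minus experiment 1 because the numbers do not link the experiments.

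Differences near 0 changed sign. With array weights they were -0.015 for Hopx, 0.018 for Neurog2 and -0.045 for Sox11 over both experiments, -0.039 for Hopx and -0.11 for Sox11 within experiment 1, and -0.065 for Hopx and 0.071 for Dcx within experiment 2. Igfbpl1 then read 0.075 for the difference of the effects and -0.053 between experiments. Without the 3 arrays that stood apart, Hopx and Sox11 read -0.024 and -0.035 over both and -0.047 and -0.18 within experiment 1. Hopx then read -0.00072 within experiment 2 and 0.046 for the difference of the effects, and Igfbpl1 0.23 for that difference and -0.079 between experiments. Between experiments, equal array medians gave -0.067 for Neurog2, -0.21 for Igfbpl1 and -0.18 for Dcx, and quantile normalisation -0.12 for Neurog2 and -0.23 for Igfbpl1. The cause was not tested.

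Leaving out 1 array at a time also turned signs. The ranges over both experiments were Dcx -0.084 to 0.038, Neurod1 -0.0017 to 0.23 and Neurog2 -0.061 to 0.016. The ranges within experiment 1 were Hopx -0.013 to 0.24, Sox11 -0.075 to 0.073 and Igfbpl1 -0.22 to 0.018. The ranges within experiment 2 were Hopx -0.057 to 0.12, Dcx -0.12 to 0.18, Sox2 -0.18 to 0.0019, Igfbpl1 -0.22 to 0.034 and Neurod1 -0.54 to 0.016. The ranges for the difference of the effects were Sox2 -0.073 to 0.10, Hopx -0.22 to 0.031, Igfbpl1 -0.13 to 0.13, Nes -0.030 to 0.26 and Dcx -0.062 to 0.23. The ranges between experiments were Igfbpl1 -0.036 to 0.089 and Dcx -0.026 to 0.11.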

Other observations

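For each member other than Eomes, the gene most like it over the 13 arrays follows, with values centred by experiment but not by genotype. Each is a description, since it was picked as the highest of all genes. Sox2 was closest to Elovl6, a fatty acid elongase (r = 0.97), and Nes to Sat1, a polyamine acetyltransferase (r = 0.95). Neurod1 was closest to Bdnf, the brain-derived neurotrophic factor made by granule neurons (r = 0.92). Igfbpl1 was closest to Calb2, the calretinin gene of late neuroblasts (r = 0.90). Hopx was closest to Zfp202 (r = 0.85), Neurog2 to 4930451G09Rik (r = 0.91), Sox11 to Mtap (r = 0.89) and Dcx to Emc2 (r = 0.95).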
